A study of Homo sapiens with 8 samples.

Results

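The regions described here are the ATAC-seq peaks in and around 8 genes that encode subunits of the SWI/SNF chromatin remodelling complex other than SMARCB1: SMARCA4, SMARCA2, SMARCC1, ARID1A, ARID1B, DPF3, ARID2 and PBRM1. ATAC-seq marks open DNA by letting a transposase cut it and insert sequencing adapters there. For these 8 genes, peaks were taken by position alone: every peak of the 4 deposited lists that overlaps the gene span or the 50 kb on either side (hg19). The genes themselves were chosen with earlier results of these data known. The 8 windows held 608 of 411408 peaks, and joining peaks that overlap by at least 1 bp gave 220 of 146099 merged regions. Each of the 220 is accounted for below by its days of detection.

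All samples were G401 cells, an established rhabdoid tumour line without SMARCB1, carrying a stable construct from which doxycycline induces SMARCB1. Day 0 cells are labelled SMARCB1 -/-, and cells taken after 1, 3 and 7 days with 1 μg/ml doxycycline are labelled SMARCB1 +/+. Each day had 2 replicates of 100000 cells, per the labels, which do not say whether these were separate cultures. Only 1 peak list per day was used, with no value per sample, so the spread between replicates is unknown and no p-value is given. The day 0 list was identified by elimination, since its name carries no day. The inducible line is a single engineered line, and cells given doxycycline without the construct were not analysed here.

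SWI/SNF complexes use ATP to slide and evict nucleosomes and so keep enhancers and promoters open. Each complex carries 1 ATPase, SMARCA4 (BRG1) or SMARCA2 (BRM). ARID1A or ARID1B defines the canonical BAF form, and ARID2 with PBRM1 the PBAF form. The core of both these forms includes SMARCC1 and SMARCB1. Loss of SMARCB1 is the defining lesion of rhabdoid tumours, and silencing of SMARCA2 has been described in such tumours.

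The promoter sequences of 3 of these genes are shown because they span the range of promoter accessibility in these cells. SMARCA4 had one of the tallest summits at its start, SMARCA2 the lowest of the 8, and DPF3 the highest fold over its local background. They are RefSeq sequences of GRCh38.p14, 5′ to 3′ on the strand of the gene, running from 250 bases before the annotated start. SMARCA4 lies at chr19:10960780-10961079 (plus strand), SMARCA2 at chr9:2015097-2015396 (plus strand) and DPF3 at chr14:72894052-72894351 (minus strand). Capitals mark matches on either strand to TGANTCA (AP-1), CCAAT (NF-Y), GGGCGG (SP/KLF), AAGATGG (YY1) and CCGGAAG (ETS).

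SMARCA4: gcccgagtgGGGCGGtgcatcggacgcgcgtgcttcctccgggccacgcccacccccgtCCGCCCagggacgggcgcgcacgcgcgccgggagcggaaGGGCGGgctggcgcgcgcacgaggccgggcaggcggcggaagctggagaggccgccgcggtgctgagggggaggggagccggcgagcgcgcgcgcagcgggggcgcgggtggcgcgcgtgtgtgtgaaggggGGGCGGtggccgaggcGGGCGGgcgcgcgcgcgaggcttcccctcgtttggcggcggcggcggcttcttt

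SMARCA2: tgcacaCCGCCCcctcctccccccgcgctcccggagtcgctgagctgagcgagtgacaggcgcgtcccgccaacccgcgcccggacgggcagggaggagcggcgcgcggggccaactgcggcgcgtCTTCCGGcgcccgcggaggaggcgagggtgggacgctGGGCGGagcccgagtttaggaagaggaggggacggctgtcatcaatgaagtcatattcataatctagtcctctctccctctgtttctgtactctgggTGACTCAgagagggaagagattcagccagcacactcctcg

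DPF3: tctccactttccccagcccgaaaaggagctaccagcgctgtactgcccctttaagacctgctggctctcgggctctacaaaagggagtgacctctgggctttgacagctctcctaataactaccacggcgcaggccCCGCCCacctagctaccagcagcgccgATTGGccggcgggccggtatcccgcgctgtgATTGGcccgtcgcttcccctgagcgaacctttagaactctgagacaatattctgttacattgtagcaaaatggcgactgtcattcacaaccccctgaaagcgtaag

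The promoter table matched 6 of the 8 genes, not SMARCC1 and ARID2, and for genes with several annotated starts the one farthest upstream is shown. The SMARCA4 sequence was 81.3% G or C with 55 CpG dinucleotides, and it held 5 matches to GGGCGG and none to the other 4 motifs. The SMARCA2 sequence was 66.7% G or C with 30 CpG, more CpG than 77.6% of the 35116 promoters in the table, whose median was 14. It was the only 1 of the 6 outermost promoters with a match to TGANTCA, the motif of the AP-1 factors named in the study's title. That motif was found in 7.71% of all promoters in the table. SMARCA2 also held 1 match to CCGGAAG, found in 10.3% of promoters, and 2 to GGGCGG, found in 45.0%. The DPF3 sequence was 57.0% G or C with 18 CpG, and held 2 matches to CCAAT, a motif present in 34.6% of promoters, and 1 to GGGCGG. None of the 3 sequences matched AAGATGG, found in 5.84% of promoters. Matches may overlap each other. These are descriptions of letters, not of bound sites. The sequences and the peaks come from different builds and were matched by gene, not by coordinate.

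The first question was whether the starts of these genes were open and whether that differed after SMARCB1 was induced. All 8 gene starts lay inside a region with a peak on every day. Summits are given as reads at the highest position of the peak, and as scaled summits, which divide those reads by the genome-wide background of the same list. That background, the measure of depth, was 6.34, 6.04, 6.73 and 6.10 reads per position on days 0, 1, 3 and 7. Brackets hold 95% intervals, which cover the counting error of reads only and not the spread between cultures.

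SMARCA4, the ATPase also called BRG1, had a promoter region at chromosome 19, 11070888 to 11072242. Its summit held 207, 205, 190 and 191 reads on days 0, 1, 3 and 7, or 32.6, 33.9, 28.3 and 31.3 times the background. The 4 days stood close together: the ratios to day 0 on days 1, 3 and 7 were 1.04 (0.85 to 1.27), 0.87 (0.71 to 1.06) and 0.96 (0.78 to 1.17). SMARCA2, the alternative ATPase, had a promoter region at chromosome 9, 2014729 to 2015417, with 26, 31, 28 and 26 reads on days 0, 1, 3 and 7. These summits were 4.10, 5.13, 4.16 and 4.26 times the background. The smallest summit of any peak in those lists held 18, 16, 17 and 18 reads. Regions with a lower summit than the SMARCA2 promoter made up 8.78%, 22.0%, 13.3% and 10.8% of those with a peak on days 0, 1, 3 and 7. On day 0, 96.0% had a lower summit than the SMARCA4 promoter.

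By scaled summit, the SMARCA2 promoter stood apart from the other 7 on every day. On day 0 the others lay between 23.8 and 34.5 times the background, 5.81 to 8.42 times the SMARCA2 value. On day 7 they lay between 22.1 and 33.3 times, 5.19 to 7.81 times the SMARCA2 value. Its ratios to day 0 on days 1, 3 and 7 were 1.25 (0.72 to 2.19), 1.02 (0.57 to 1.80) and 1.04 (0.58 to 1.86). At this depth a difference within those wide limits was not detectable. Its highest peak was 400, 475, 271 and 261 bp wide on days 0, 1, 3 and 7. By the authors' fold over the local background, SMARCA2 did not stand apart. Its fold was 3.68, 4.54, 3.75 and 3.80 on those days, within the range of the other 7 on each day. On day 0 that range ran from 2.99 (ARID1A) to 8.95 (DPF3).

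**Figure D1:**
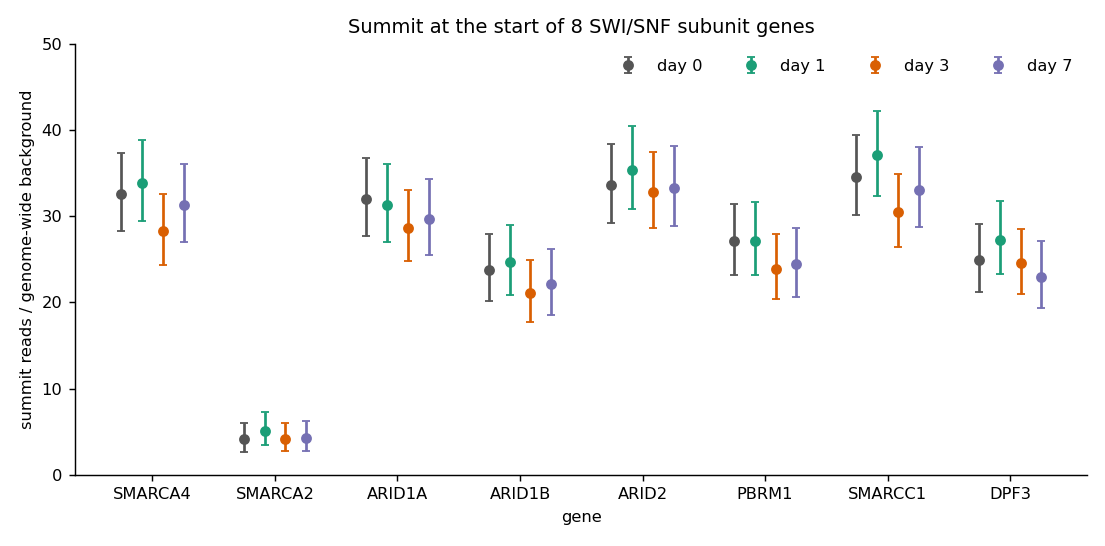
Scaled summit (y axis, multiples of the background of each list) at the start of each of the 8 genes (x axis) on days 0, 1, 3 and 7, with bars for exact Poisson 95% intervals of the read count. SMARCA2 sits between 4.10 and 5.13 on every day, and the other 7 genes between 21.1 and 37.1.

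Among the other subunits, SMARCC1, the BAF155 scaffold of the core, had the highest promoter summit on day 0, with 219, 224, 205 and 202 reads on days 0, 1, 3 and 7 at chromosome 3, 47822694 to 47824081. ARID2, the DNA-binding subunit of PBAF, followed with 213, 214, 221 and 203 reads at chromosome 12, 46122378 to 46123659. A second region of like height, 208, 213, 226 and 211 reads, lay just upstream of it at chromosome 12, 46120839 to 46121899. ARID1A, the BAF subunit most often mutated in human cancers, had 203, 189, 193 and 181 reads at chromosome 1, 27021793 to 27022739. All 3 were among the taller summits of the day 0 list: 97.6% of day 0 regions were lower than SMARCC1, 96.8% lower than ARID2 and 95.4% lower than ARID1A.

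PBRM1, the bromodomain subunit of PBAF, had 172, 164, 161 and 149 reads on days 0, 1, 3 and 7 at chromosome 3, 52719293 to 52720464. ARID1B, the paralogue of ARID1A, had 151, 149, 142 and 135 reads in a broad region at chromosome 6, 157098164 to 157101208, whose main peak was 2841 bp wide on day 0. DPF3, whose PHD fingers read modified histones and which acts in heart and muscle development, had 158, 165, 165 and 140 reads at chromosome 14, 73359699 to 73361426. Its fold over the local background, the authors' value, was 8.95, 10.4, 9.05 and 8.63 on the 4 days, against 2.99 to 6.43 at the other 7 promoters on day 0. On day 0 the DPF3 region held 2 separate peaks, the taller 778 bp wide, and on days 1, 3 and 7 it held 1 peak of 1505, 1634 and 1382 bp.

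Across the 8 promoters, the ratio to day 0 ran between 0.98 and 1.25 on day 1, 0.87 and 1.02 on day 3, and 0.90 and 1.04 on day 7. Each of the 24 intervals included 1, so no promoter summit differed from day 0 by more than its counting error. None was at least 2-fold higher or lower. The tallest summit of any peak in the lists held 283, 287, 282 and 264 reads on days 0, 1, 3 and 7. Whether summits near that height were limited from above was not tested. On day 3 and again on day 7, 7 of the 8 scaled summits were below day 0, whereas by the fold over the local background 1 of 8 was. The direction of these small differences therefore turned with the scale. Over all regions of the genome present on every day, the median ratio of scaled summits was also below day 0, at 0.943 on day 3 and 0.972 on day 7.

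The second comparison asked which regions appeared or disappeared around these genes. The peak number in the windows was 130, 167, 166 and 145 on days 0, 1, 3 and 7. That is 1.28, 1.28 and 1.12 times day 0 on days 1, 3 and 7, against 1.36, 1.46 and 1.28 times for the whole lists. Of the 220 regions, 60 (27.3%) had a peak on day 1 and none on day 0, 66 (30%) on day 3 and 43 (19.5%) on day 7. Over all merged regions of the genome these shares were 26.7%, 32.9% and 24.2%, so the members' shares were near or below the background. Regions with a day 0 peak and none later numbered 21 (9.55%), 31 (14.1%) and 31 (14.1%) on days 1, 3 and 7, against 6.97%, 7.86% and 9.34% genome-wide.

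By days of detection, 86 regions (39.1%, against 41.6% genome-wide) had a peak on every day, and 26 (11.8%, against 13.1%) had none on day 0 and one on all 3 induced days, called sustained gains below. A further 25 without a day 0 peak were seen on 2 induced days and 41 on 1. Of the 146099 regions of the genome, 16757 and 31689 fell in these classes. Another 13 (5.91%, against 4.26%) were seen on day 0 alone. The remaining 29 of the 220 were seen on day 0 and some of the induced days, against 11566 of the 146099. The genes differed. ARID1B had 12 of the 26 regions gained on all 3 days, PBRM1 6 and ARID1A 5, while ARID2, SMARCC1 and DPF3 had 1 each and SMARCA4 and SMARCA2 had none. As shares of the regions of each window, the first 6 were 20.7%, 23.1%, 15.6%, 4%, 3.70% and 7.69%, against 13.1% genome-wide. Windows differ in length, 533 kb for ARID1B against 186 kb for ARID1A, and in their number of regions, 58 against 32, so these counts carry no rank of response.

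**Figure D2:**
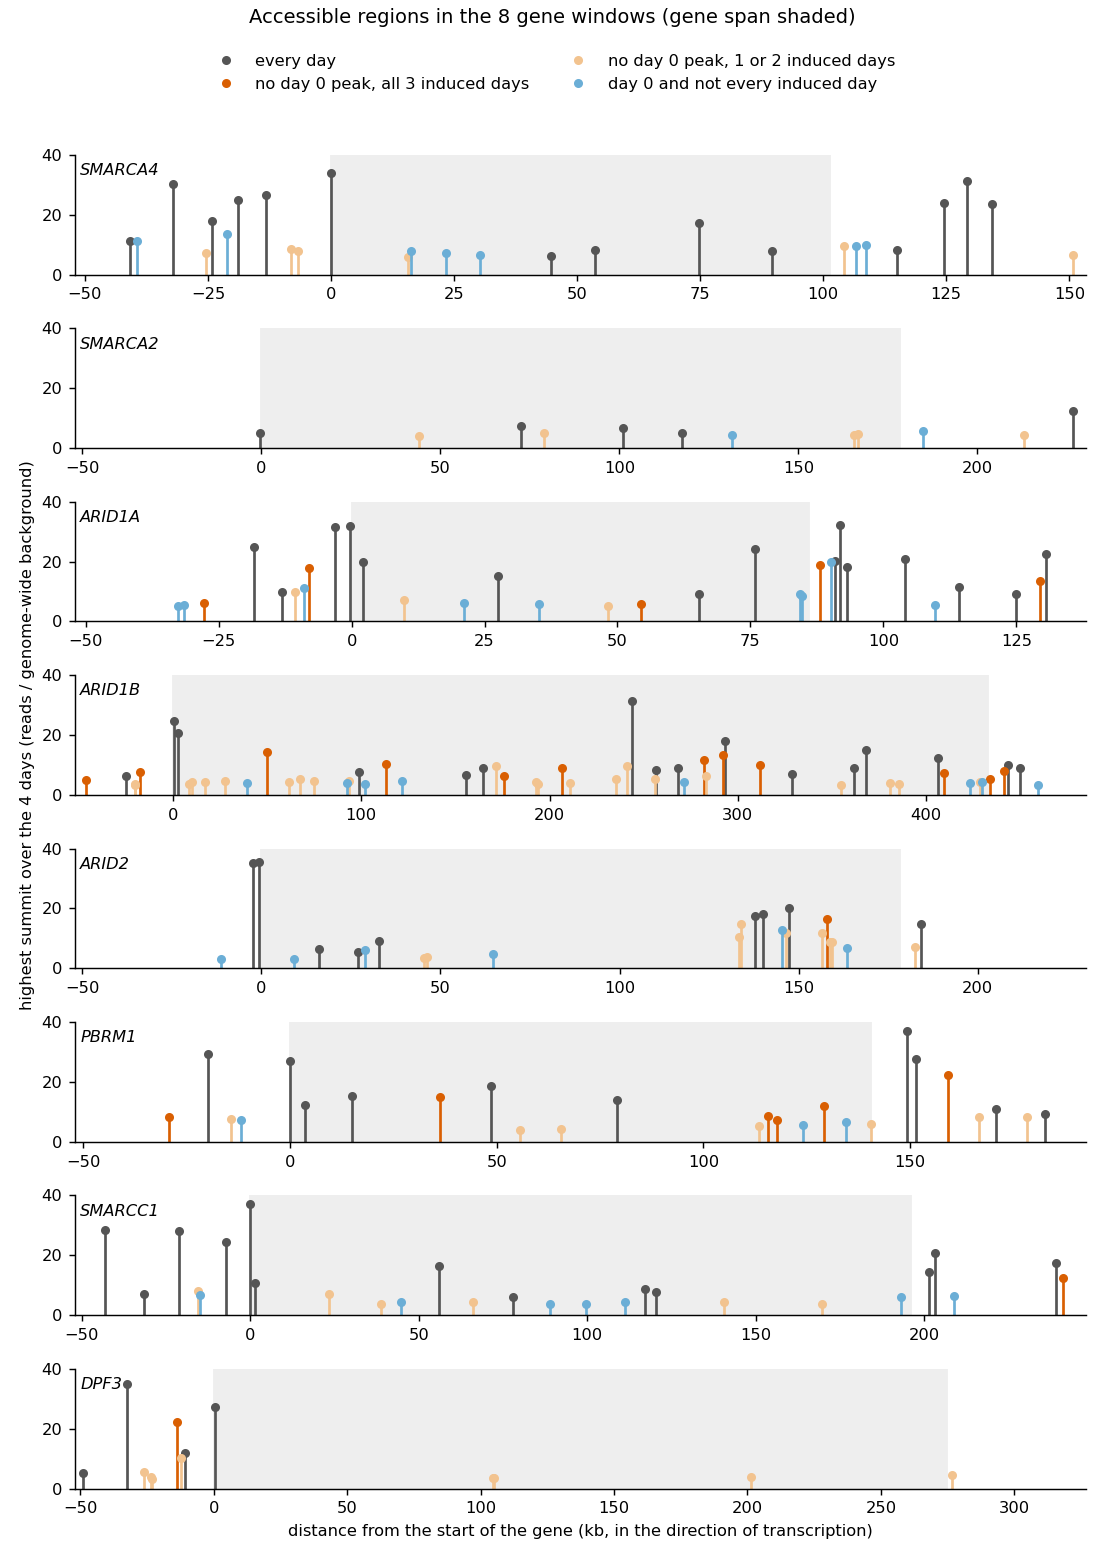
Every one of the 220 regions in the 8 windows, at its distance from the start of the gene in kb (x axis, gene span shaded), with its highest scaled summit over the 4 days (y axis). Colours give the days of detection. Regions gained on all 3 induced days number 12 in the ARID1B window, 6 in PBRM1, 5 in ARID1A, 1 each in ARID2, SMARCC1 and DPF3, and 0 in SMARCA4 and SMARCA2.

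Neither ATPase gene window had a sustained gain, among 27 regions for SMARCA4 and 12 for SMARCA2, against a share of 13.1% genome-wide. These are small counts, and the ARID2, SMARCC1 and DPF3 windows had only 1 each. In the SMARCA4 window, 14 of 27 regions were present on every day and 6 had no day 0 peak. The lowest day 3 ratio, 0.67 (0.43 to 1.04), was inside the gene at chromosome 19, 11125057 to 11125437, with 52, 48, 37 and 38 reads on days 0, 1, 3 and 7. None of its regions present on every day was past 2-fold. In the upstream flank, chromosome 19, 11038858 to 11040099 had 192, 171, 159 and 167 reads. Its day 3 ratio was 0.78 (0.63 to 0.97). Among the 86 regions of the 8 windows present on every day, this was the only day 3 interval below 1, and 10 lay above 1. CARM1, YIPF2 and TIMM29 lie within the same distance of SMARCA4 in the RefSeq gene table, so flank regions may belong to them. The flanks of the other windows hold further protein-coding genes by the same table, except those of SMARCA2 and ARID1B. Genes of other types were not looked for.

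The SMARCA2 window was sparse, with 12 regions in 278 kb, or 2.52 peaks per 100 kb on day 0. Only DPF3 had fewer, 1.33, and the other 6 windows had 4.5 to 12.9. Its 5 regions present on every day included the promoter, 3 inside the gene and 1 in the downstream flank. That flank region, at chromosome 9, 2241576 to 2242540, was the tallest of the window, with 69, 74, 67 and 63 reads, and had the lowest day 3 ratio of those 5, 0.92 (0.64 to 1.30). The highest day 3 ratio, 1.14 (0.73 to 1.80), was at chromosome 9, 2116097 to 2116573, with 38, 39, 46 and 25 reads. Of the 5 regions without a day 0 peak, 2 were first seen on day 1, 2 on day 3 and 1 on day 7, none with more than 33 reads. A region of 36 reads on day 0 alone lay at chromosome 9, 2200052 to 2200433.

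In the SMARCC1 window, 13 of 27 regions were present on every day. Inside the gene, the region at chromosome 3, 47766891 to 47767606, 56.2 kb from the start, had 34, 100, 98 and 63 reads on days 0, 1, 3 and 7. Scaled summits were 3.09 (2.07 to 4.70), 2.72 (1.82 to 4.14) and 1.93 (1.25 to 3.02) times day 0 on the induced days. By fold over the local background it was 2.22, 2.23 and 1.78 times day 0. All 3 induced days lay above day 0, with day 7 the lowest of them. The sustained gain of this window, with 75, 77 and 50 reads on days 1, 3 and 7, lay in the downstream flank at chromosome 3, 47581791 to 47582332. The lowest day 3 ratio was 0.81 (0.62 to 1.05) at chromosome 3, 47619395 to 47620981, and the tallest region of day 0 alone had 40 reads at chromosome 3, 47614390 to 47614631.

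ARID1A, a gene of 86.1 kb, had 32 regions, 15 of them present on every day. The region at chromosome 1, 27097770 to 27098893, inside the gene and 75.8 kb from its start, had 62, 147, 162 and 100 reads on days 0, 1, 3 and 7. Its ratio to day 0 was 2.49 (1.84 to 3.41), 2.46 (1.83 to 3.36) and 1.68 (1.21 to 2.34) on days 1, 3 and 7. In the downstream flank, chromosome 1, 27125923 to 27127091, had 66, 127, 110 and 71 reads. There the ratios were 2.02 (1.49 to 2.76), 1.57 (1.15 to 2.17) and 1.12 (0.79 to 1.59), and the local background of day 1 was 1.52 times day 0.

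The lowest ratio at any region present on every day in the 8 windows was also in ARID1A. At chromosome 1, 27087668 to 27088084, the summit held 58, 46, 41 and 30 reads, at 0.54 of day 0 on day 7 (0.33 to 0.85). The tallest of its 5 sustained gains by their lowest day, chromosome 1, 27110501 to 27110834, held 113, 114 and 103 reads on days 1, 3 and 7, yet folds of only 2.07, 2.1 and 2.04, since the local background itself held 54.1 reads on day 1. The tallest ARID1A region of day 0 alone, with 58 reads, lay at chromosome 1, 27106705 to 27106918.

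ARID1B, with 58 regions in its window and 47 of them inside the gene, apart from the promoter, had 24, 49, 37 and 34 peaks on days 0, 1, 3 and 7. Day 1 thus had 2.04 times the day 0 number, against 1.36 times over the genome. Of its 58 regions, 34 had no day 0 peak, and 28 of these were already seen on day 1, or 82.4% against 57.7% genome-wide. Of the 28, 10 were seen on day 1 alone, against 9780 of 38964 such regions genome-wide. These 10 had 21 to 32 reads and folds of 2.57 to 3.89. The 12 sustained gains had 27 to 74 reads on day 1, so the ranges overlapped. The tallest by its lowest day, chromosome 6, 157148493 to 157149825, had 74, 96 and 68 reads on days 1, 3 and 7, and the highest fold among them, chosen after the values were seen, was 7.98, 8.44 and 6.67 at chromosome 6, 157410318 to 157410903.

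The highest ratio to day 0 in the 8 windows was inside ARID1B. At chromosome 6, 157391538 to 157392477, 293 kb from the start, the summit held 23, 105, 122 and 76 reads on days 0, 1, 3 and 7. That is 4.79 (3.03 to 7.89), 5.0 (3.19 to 8.19) and 3.44 (2.13 to 5.74) times day 0 on the induced days. The local background there was 2.26, 2.41 and 1.79 times day 0, so by fold the region was 2.19, 2.16 and 1.97 times day 0. A gained neighbour 0.38 kb away, chromosome 6, 157390699 to 157391158, had 55, 90 and 38 reads on days 1, 3 and 7. The strongest region inside the gene, chromosome 6, 157342031 to 157343632, had 197, 189, 190 and 176 reads, and its 3 intervals included 1. The lowest day 3 ratio of this window was 0.77 (0.47 to 1.27), at chromosome 6, 157254294 to 157254879, with 39, 37, 32 and 41 reads. The tallest region of day 0 alone had 28 reads, at chromosome 6, 157528590 to 157528881.

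PBRM1 had 3 regions present on every day and past 2-fold, all inside the gene. The one 79.0 kb from the start, chromosome 3, 52640540 to 52641195, had 25, 85, 83 and 55 reads on days 0, 1, 3 and 7. Ratios to day 0 were 3.57 (2.26 to 5.82), 3.13 (1.98 to 5.11) and 2.29 (1.40 to 3.83), and by fold 2.20, 1.91 and 1.58. At chromosome 3, 52670645 to 52671764, the reads were 48, 113, 125 and 84, with ratios of 2.47, 2.46 and 1.82. At chromosome 3, 52704545 to 52705373, they were 42, 72, 103 and 83, with ratios of 1.80 (1.21 to 2.70), 2.31 (1.60 to 3.40) and 2.05 (1.40 to 3.05). Day 1 was the highest day at the first of these regions by ratio and day 3 at the last.

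Another 4 of the 13 PBRM1 gene body regions (30.8%) were gained on all 3 days, among them chromosome 3, 52682993 to 52684355, with 91, 91 and 67 reads. That share was 11.2% for the gene body regions of all 8 windows and 13.1% for all regions of the genome. The gene body held 4 regions present on every day, and their median ratio was 2.14, 2.38 and 1.94 on days 1, 3 and 7, against 1.06, 0.943 and 0.972 for all such regions of the genome. Of these 4, 3 are the regions named above for being past 2-fold, so the high median follows from them. Over the 10 regions of the whole PBRM1 window present on every day, the median was 1.06, 0.920 and 0.951. With 4 regions of 1 gene, the gene body values are a description and not a test. The tallest sustained gain of the window was in the downstream flank, chromosome 3, 52560008 to 52561480, with 122, 151 and 95 reads. The lowest day 3 ratio was 0.72 (0.48 to 1.08), at chromosome 3, 52536834 to 52537455, and a region of 47 reads on day 0 alone lay at chromosome 3, 52731709 to 52731926. The PBRM1 flanks hold NT5DC2, GNL3, GLT8D1, SPCS1 and NEK4, among other genes.

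DPF3 had only 3 regions inside a gene of 275 kb, apart from its promoter, all without a day 0 peak and with at most 25 reads. The larger regions of its window lay upstream. The sustained gain at chromosome 14, 73374276 to 73375169, 13.9 kb before the start, had 114, 151 and 78 reads on days 1, 3 and 7, and folds of 5.94, 5.91 and 4.51. A neighbour present on every day, chromosome 14, 73371487 to 73372153, had 60, 73, 78 and 67 reads, while its local background was 2.12, 2.67 and 1.91 times day 0. Its scaled summit was thus 1.23-fold day 0 on day 3 (0.86 to 1.75), but its fold was 0.49 of day 0. The tallest upstream region, chromosome 14, 73392522 to 73394402, had 217, 211, 214 and 198 reads and the lowest day 3 ratio of the window, 0.93 (0.77 to 1.13).

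**Figure D3:**
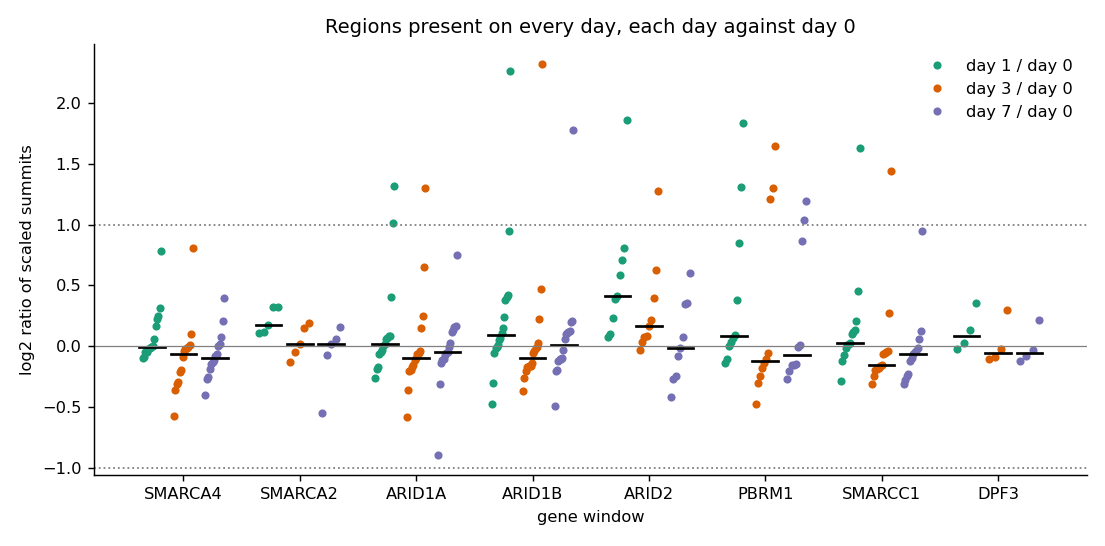
Log2 ratio of scaled summits on days 1, 3 and 7 to day 0 (y axis) for the 86 regions present on every day, by gene window (x axis); each point is a region, black bars are medians, and dotted lines mark 2-fold. Most points lie near 0, and the points above 1 belong to ARID1A, ARID1B, ARID2, PBRM1 and SMARCC1.

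Over the 8 windows, the summits of shared regions were mostly near day 0, with a small number well above it. Among regions with a peak on both days, 8 of 107 (7.48%, against 3.48% genome-wide) were at least 2-fold higher on day 1, 8 of 97 (8.25%, against 3.66%) on day 3 and 3 of 97 (3.09%, against 2.1%) on day 7. The members' shares were above the background on days 1 and 3, on counts of 8. By the authors' fold over the local background, the counts were 4 of 107 (3.74%, against 0.899% genome-wide), 3 of 97 (3.09%, against 0.966%) and 0 of 97 (against 0.428%), below those by scaled summit on each day. Of the 8 regions present on every day and past 2-fold on any day (9.3%, against 4.7%), 7 lay inside a gene and 1 in a flank, where 38 of all 86 lay inside a gene, and 2, those at 293 kb in ARID1B and 79.0 kb in PBRM1, were past 2-fold on all 3 days (2.33%, against 1.9%). None was at least 2-fold lower on any day, against 0.0146%, 0.0686% and 0.0585% genome-wide. A count of 0 of 107 on day 1 allows a share of up to 2.8%, and 0 of 97 on days 3 and 7 up to 3.09%. The median ratio over the 86 regions was 1.06, 0.963 and 0.963 on days 1, 3 and 7, against 1.06, 0.943 and 0.972 for all regions present on every day.

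The 26 sustained gains were mostly lower on day 7 than on day 3, in 23 of 26 (88.5%, against 77.3% genome-wide). Their median scaled summit was 9.18, 9.81 and 6.72 on days 1, 3 and 7, against 6.62, 8.03 and 6.39 for all such regions. Of the 26, 11 had their tallest scaled summit on day 1, 12 on day 3 and 3 on day 7 (42.3%, 46.2% and 11.5%, against 25.8%, 58.5% and 15.7% genome-wide). They lay 0.271 to 36.4 kb from the nearest region with a day 0 peak in the same window, with a median of 6.11 kb, and 14 of them (53.8%) were inside a gene, against 56.8% of all 220. The 13 regions seen on day 0 alone had 19 to 58 reads, folds of 2.20 to 5.04 and a median length of 219 bp. Their median summit was 34 reads, against 57 over the day 0 list.

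In the downstream part of ARID2, the background around the peaks also differed between days. Between 133 and 164 kb from its start (chromosome 12, 46256835 to 46287385, limits chosen after the values were seen), 12 regions lay in a stretch whose local background was itself high on day 1. The local background is the read depth expected at a peak by the authors' caller, recovered from the deposited values. With no control library among the 8 samples, it may include reads of the peak and its neighbours. It may thus not be independent of the summits. In 18.5% to 20.9% of the peaks of a list it equalled the genome-wide background. At the regions with a peak, its median was 2.34, 6.70, 4.36 and 2.84 times the genome-wide background on days 0, 1, 3 and 7. Of the 12 regions, 5, 9, 10 and 5 had a peak on days 0, 1, 3 and 7. In the part of the gene between 9.17 and 64.8 kb, the medians were 1.10, 1.11, 1.08 and 1.00. The lowest value there was 1.00 on each day, the genome-wide background itself, so these medians had little room to be lower.

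Summits in that stretch were higher on days 1 and 3, but folds were not. Their median scaled summit was 5.52, 14.9, 11.5 and 8.03 on days 0, 1, 3 and 7, while the median fold was 3.12, 2.09, 2.31 and 3.00. The medians are over the regions with a peak that day, which differ between days. At chromosome 12, 46270471 to 46271310, present on every day, the summit held 35, 121, 90 and 51 reads, with ratios to day 0 of 3.63 (2.47 to 5.45), 2.43 (1.62 to 3.69) and 1.52 (0.97 to 2.40). Its local background was 3.27, 2.40 and 1.36 times day 0, and its fold 1.14, 1.04 and 1.12 times.

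The neighbour at chromosome 12, 46268792 to 46269399, with 35, 78 and 84 reads on days 0, 1 and 3 and no peak on day 7, was the other ARID2 region past 2-fold. The stretch also held the sustained gain of this window, chromosome 12, 46281326 to 46281980, with 100, 86 and 44 reads on days 1, 3 and 7. The lowest day 3 ratio among ARID2 regions present on every day was that of the promoter, 0.98, and the tallest region of day 0 alone had 20 reads at chromosome 12, 46132694 to 46132893. Of the 9 ARID2 regions present on every day, 3 had a local background at least 2 times day 0 on day 1. Over the 86 regions of the 8 windows 5 did, and over the genome 0.867% of 60786 did. The cause of the higher local background was not tested, and 1 list per day leaves no replicate of it.

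**Figure D4:**
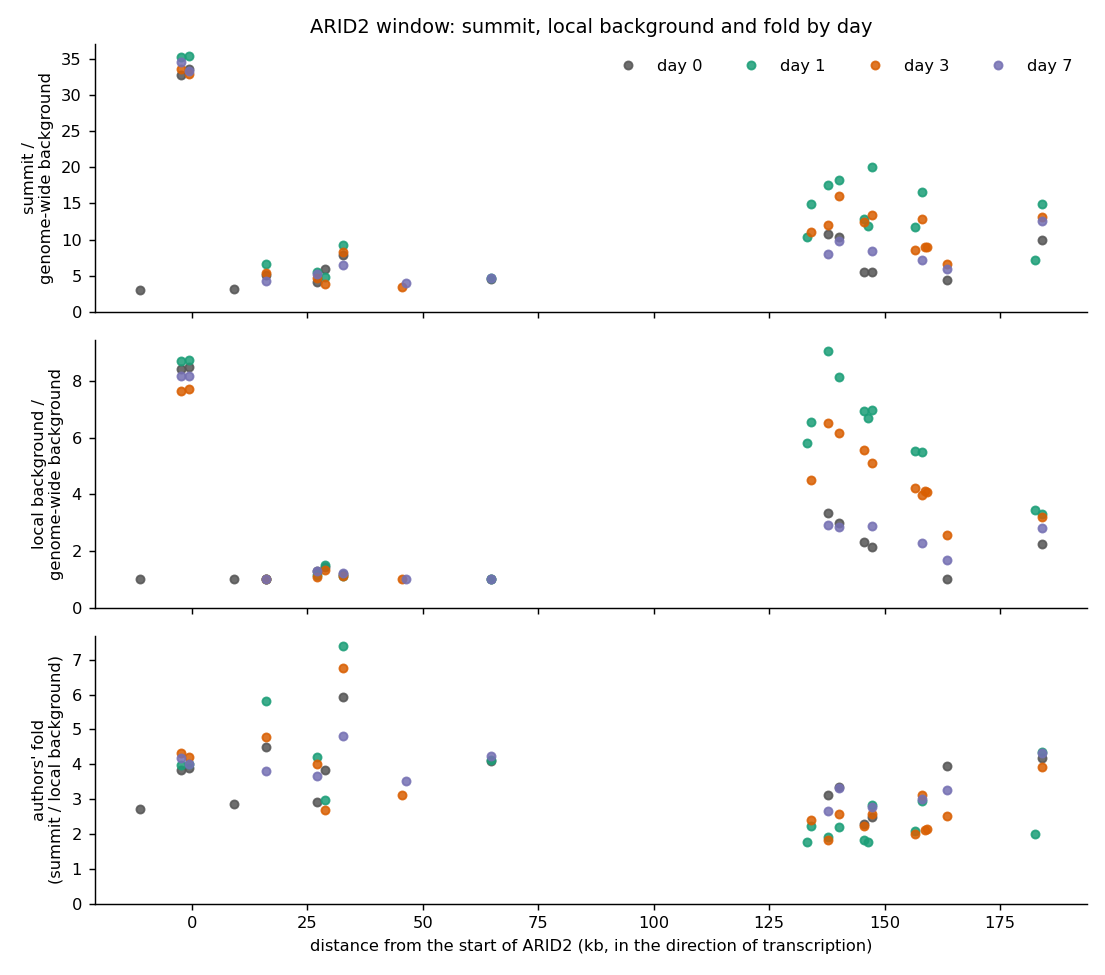
Regions of the ARID2 window by distance from the start of the gene in kb (x axis): scaled summit (top), local background divided by the genome-wide background (middle) and the authors' fold (bottom), for days 0, 1, 3 and 7. Between 133 and 164 kb the local background is highest on day 1, with a median of 6.70, and near its day 0 level on day 7, while the median fold lies between 2.09 and 3.12 over the 4 days.

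Values on either side of the 50 kb limit are given for 1 region each. Just inside, chromosome 14, 73409656 to 73410002, lay 0.822 kb within the DPF3 window, with 33, 31, 33 and 31 reads on days 0, 1, 3 and 7. Just outside was chromosome 3, 52528563 to 52528989, 0.379 kb beyond the PBRM1 window, with 67 reads on each of days 1 and 3. Whether regions inside the genes are exonic or intronic was not analysed here, because the annotation used here belongs to another genome build.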

How the data were processed

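ATAC-seq of G401 cells was deposited as 1 file of narrowPeak layout that joins 4 peak lists. Per the submitters' processing notes, the tools were Bowtie2, deepTools and MACS2 2.1.1.20160309, with build hg19. The sources used here do not state read filters, a transposase offset or pooling of replicates. The score the authors deposited equals -log10 q multiplied by 10 without its decimals in at least 99.9% of peaks of each list. The deposited fold is a ratio, summit over local background, and the deposited -log10 p and -log10 q are those of the authors' caller.

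Summit reads and local background were recovered from the fold, taken as (reads + 1) / (background + 1), and the Poisson -log10 p. A whole number of reads matched all 411408 peaks within 0.005. The most common local background of a list was taken as its genome-wide background. Peaks overlapping by at least 1 bp were merged, and a region took its highest summit per day. Ratios have exact conditional binomial 95% intervals. Reads that are PCR copies would make these too narrow. The steps were tested on simulated data.

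Gene spans were those given with the member list, and gene orientation came from RefSeq (GRCh38.p14) or, for ARID2 and SMARCC1, from known orientation. The members and lists were chosen with earlier results of these data known. Named regions are, in each window, the promoter, the tallest sustained gain by its lowest day, the highest and lowest day 3 ratio among regions present on every day, every such region past 2-fold, and the tallest region of day 0 alone. Other named regions were chosen after their values were seen. Alternatives changed the window, the overlap, the q limit, the scale and the fold limit. Single regions in the downstream flank of SMARCA4 are not reported here. Other SWI/SNF genes were not analysed here. Python 3.11.15, NumPy 2.4.6, pandas 2.3.3, SciPy 1.17.1 and matplotlib 3.10.9 were used.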

Additional observations from a re-analysis of the deposited data

How the results depend on the processing

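No paired analysis was possible because the deposited lists hold no value per sample, and leaving out a replicate was not possible for the same reason. With windows cut to 25 kb of flank, with summits scaled by the median of regions present on every day, or with a -log10 q of at least 5, every count stayed within 1.5 times its value above. Scaling by that median, 70, 77, 78 and 69 reads on days 0, 1, 3 and 7, moves every log2 ratio to day 0 by -0.21, -0.07 and -0.04 on days 1, 3 and 7. With gene spans alone the windows held 74, 102, 90 and 80 peaks on days 0, 1, 3 and 7, with 36 and 26 regions gained on days 3 and 7 and 12, 18 and 20 lost on days 1, 3 and 7. A reciprocal overlap of 50% between peaks gave 34 lost on day 1. By the authors' fold, 4, 3 and 0 regions were at least 2-fold higher on days 1, 3 and 7, against 8, 8 and 3 by scaled reads, and 1 was lower on day 3. A limit of 1.5-fold gave 13 higher on day 1 and 7 on day 7, with 1 lower on day 3 and 1 on day 7. Genome-wide shares were not computed under these alternatives, except those given above for higher summits by the authors' fold. The counts therefore show only how the members' numbers moved with the setting, not whether they depart from the genome. The PBRM1 promoter on day 3 was at 1.12 of day 0 by fold, against 0.88 by scaled reads. The other 47 of 48 alternative promoter ratios stayed within the interval of the value above. The smallest summits hold 16 to 18 reads, and the gain or loss of a peak near that size may lie within counting error.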
